A study of Drosophila melanogaster with 4 samples.

Results

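Cytoplasmic ribosomal protein genes were followed on 4 two-colour arrays that compared laser wounded with unwounded Drosophila embryos. The members were all probes of a single gene whose current symbol begins with RpL or RpS and goes on with a digit or P, together with sta. Genes of mitochondrial ribosomal proteins were left out. This gave 35 genes on 49 spots, 22 of the large subunit and 13 of the small subunit, out of 8240 genes tested. The rule fits 93 genes of the RefSeq annotation of Release 6, 54 large and 39 small, and 58 of them had no probe with a single gene here. RpS6, whose product is the target of S6 kinase, and sta were among those 58 and had no annotated probe, so no values are given for them. RpS27A, made as a fusion with ubiquitin, was seen only by probes that name several genes and was left out. All 35 members had values on all 4 arrays, so that no member was lost to the filter on missing values.

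The wounded embryos were 0 to 1 h old, carried the actin reporter sGMCA, were freed of the chorion by hand, placed in halocarbon oil and cut with a laser. The unwounded embryos had the same age, reporter and handling without the laser. Both were recovered at once, which is the 0 min time point, and flash frozen in pools. Targets were made by amino-allyl labelling from 30 ug of total RNA and hybridised in pairs to arrays of spotted cDNA clones in experiments 3, 4, 7 and 8. Experiment 4 was the dye swap, with Cy5 on the wounded sample by its label, while Cy3 was on the wounded sample elsewhere. The experiments are called independent, but no separate cultures are named for them, so a p-value covers only how far these 4 arrays differ, and their number limits the precision. The reporter was in all embryos, so it does not set the groups apart. The stage of the embryos could not be checked against marker genes, because a ratio of 2 channels carries no level.

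A ribosome consists of a large subunit that joins amino acids and a small subunit that reads the mRNA, each made of ribosomal RNA and many proteins. Cells make these proteins in balance, and in Drosophila the loss of a copy of many of their genes gives the Minute phenotype of slow growth and thin bristles. The syncytial embryo starts out with ribosomes and ribosomal protein mRNAs that the mother placed in the egg.

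The deposited value is a log2 ratio of both channels for each spot. No source used here says whether wounded was divided by unwounded or Cy5 by Cy3, so no direction with respect to wounding is drawn. Signs given for an array are those of the deposited ratio. Means over arrays are given with the sign of experiment 4 reversed, called turned, as a Cy5 over Cy3 ratio needs, and with experiment 4 not turned. The array medians over probes lay between -0.03 and 0.01, and the SD over genes between 0.249 and 0.337. Experiments 7 and 8, which had the same dyes, had a Pearson correlation of -0.33 over 8222 genes, and genes are not independent replicates. The direction of the arrays relative to each other is therefore not settled by the data either. In pools of embryos, a lower value from fewer embryos that hold an mRNA and one from less of it per embryo cannot be told apart.

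No ribosomal protein gene passed the threshold of an adjusted p under 0.05 and a 1.5-fold change. The count was 0 of 35 members and 0% of the 8240 genes, with experiment 4 turned or not turned (limma, smallest adjusted p over all genes 0.064 and 0.997). At an unadjusted p under 0.05 in limma there was 1 member of 35 with experiment 4 turned, RpS20, against 406 of all genes (4.93%). With experiment 4 not turned there were 2, RpL29 and RpS12, against 207 of all genes (2.51%). No member was in both counts, but the overlap was not counted over all genes, so this is no result about the members. The smallest adjusted p of any member in limma was 0.998 with experiment 4 turned and 0.997 not turned. The counts of members were thus close to the share of all genes.

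The ratios of most members were small on every array. All 4 deposited ratios lay within 0.25 of 0 for 22 of 35 members (62.9%), against 43% of all genes. This was so for 15 of 22 large subunit genes and 7 of 13 small subunit genes. An absolute ratio of 0.585 or more on any array, which is 1.5-fold, was found for 2 of 35 members, RpL23 and RpLP1, against 13% of all genes. As the mean of its spots no member reached it in experiment 3, where 5.47% of all genes did. RpLP1 did in experiment 4 (2.56% of all genes), and RpL23 in experiment 7 (5.06%) as well as experiment 8 (3.33%). Before averaging, clone RE40409 of RpL29 had -0.60 and -0.95 in experiments 3 and 8. Clone RH47995 of RpS20 had -0.69 in experiment 3. Several spots were averaged for 12 of 35 members, against 1334 of all 8240 genes. The counts within 0.25 and past 1.5-fold were not made for genes with 1 spot alone. The SD over arrays with experiment 4 turned had a median of 0.118 for members and 0.174 for all genes, and 27 of 35 members lay below the median of all genes. With experiment 4 not turned the medians were 0.116 and 0.177, with 25 of 35 members below. A low median was not particular to the members. Turned and not turned, it was 0.1196 and 0.1205 for 32 translation factors, and 0.1276 and 0.1155 for 34 genes of ribosome biogenesis. It was higher for factors that meet the nascent chain (0.1677 and 0.1688), Tor and S6 kinase control (0.1329 and 0.169) and mitochondrial ribosomal proteins (0.1599 and 0.1574). Averaging several spots lowers the noise of a gene, so the SD was also compared for genes with 1 spot alone. The 23 members with 1 spot had a median SD of 0.125 and the 6906 genes with 1 spot one of 0.176, with 16 of the 23 members below the median of those genes. No intensities come with the ratios, so the brightness of members and of other genes could not be set side by side, and its part in this difference was not tested.

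**Figure D1:**
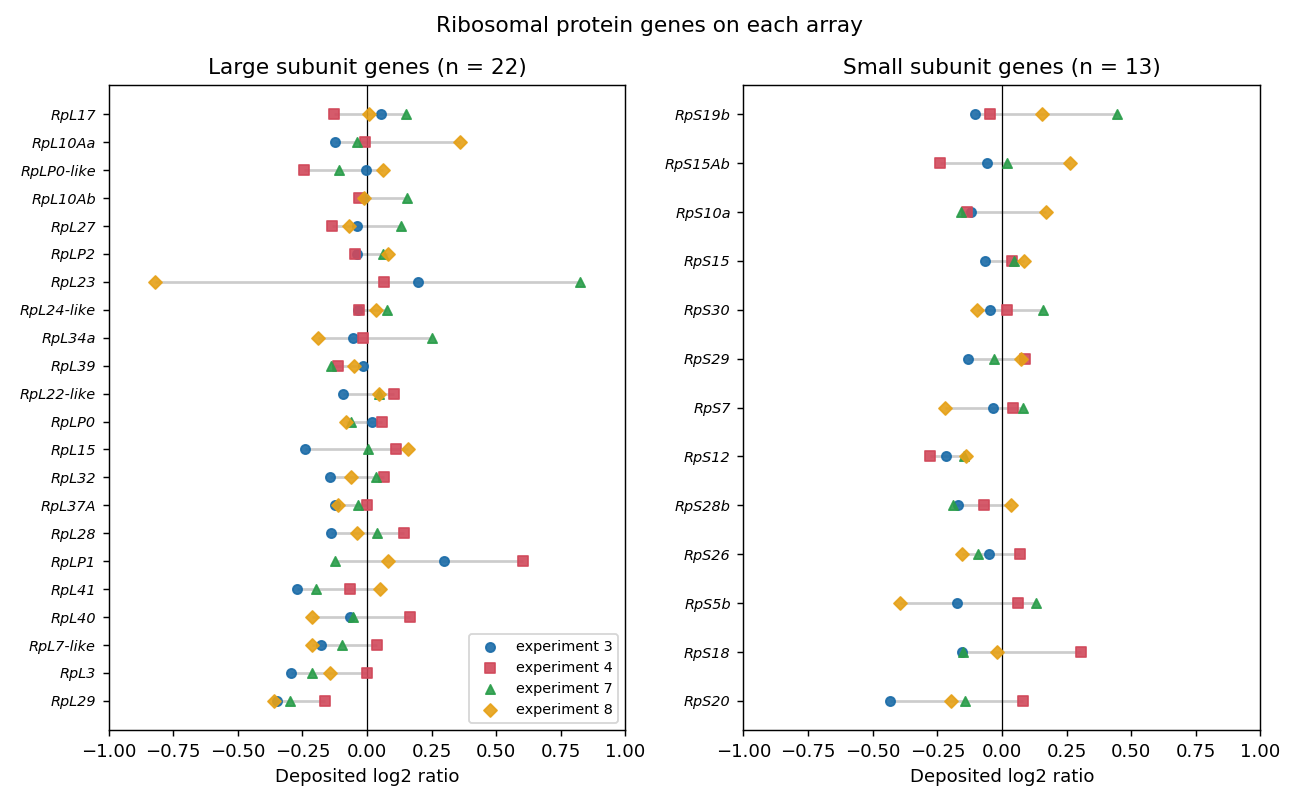
Deposited log2 ratio (horizontal axis) of each of the 35 ribosomal protein genes on experiments 3, 4, 7 and 8 (colour and shape), with large subunit genes left, small subunit genes right, and a grey line from the lowest to the highest array. Most points lie within 0.25 of 0, and RpL23 has the widest line, from -0.82 in experiment 8 to 0.83 in experiment 7.

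On single arrays the members lay near the centre of all genes except in experiment 3. There, 31 of 35 members (88.6%) had a deposited ratio below 0, against 57.1% of all genes. Their mean was -0.10 and their median -0.09, against a median of -0.03 for all genes. All 13 small subunit genes were below 0 in experiment 3, from -0.43 for RpS20 to -0.04 for RpS7, which also puts each of them below the median of all genes on that array. Of the 22 large subunit genes 18 were below 0, and the 4 others were RpLP1, RpL23, RpL17 and RpLP0. In experiment 4 the members below 0 were 16 of 35, against 50.6% of all genes. In experiment 7 they were 18, against 47.3%, and in experiment 8 they were 20, against 53.9%. The shares in experiments 7 and 8, which had the same dyes as experiment 3, were thus close to those of all genes. No test was made of the count in experiment 3, since members of an array are not replicates.

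The mean of all 35 members was -0.10, 0.01, 0.01 and -0.05 in experiments 3, 4, 7 and 8. Over the arrays it was -0.04 with experiment 4 turned (SD 0.0483, n = 4 arrays), against -0.02 for all genes. With experiment 4 not turned it was -0.03 (SD 0.0526, n = 4 arrays), against -0.01. The mean was thus smaller than its spread between arrays in both readings. Gene means lay below 0 for 22 of 35 members with experiment 4 turned (49.6% of all genes) and for 21 not turned (54.2%). The median of the gene means was -0.0452 for members and 0.0012 for all genes with experiment 4 turned. Not turned, it was -0.0164 for members and -0.0099 for all genes.

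The comparison of the subunits asked whether large subunit genes and small subunit genes moved apart. The 22 large subunit genes had means of -0.07, 0.02, 0.02 and -0.07 in experiments 3, 4, 7 and 8. The 13 small subunit genes had means of -0.14, -0.00 (-0.0047), -0.00 (-0.0025) and -0.03 on the same arrays. Large minus small was 0.06, 0.02, 0.02 and -0.03, so that its sign was not the same on all arrays. With experiment 4 turned it averaged 0.0065 (SD 0.0432, n = 4 arrays), and not turned 0.0176 (SD 0.0388, n = 4 arrays), in both cases less than its spread. The difference of the medians had another order, 0.06, -0.04, 0.02 and -0.03, and thus a different sign from that of the means in experiment 4. Without RpL23, left out after its values were seen, large minus small was 0.05, 0.02, -0.02 and 0.0021, with a turned mean of 0.0032 (SD 0.0311, n = 4 arrays). The sign in experiments 7 and 8 therefore rested on this 1 gene. The 22 large subunit genes include 4 named -like, placed there by their symbols. With RpL23 kept and these 4 left out, large minus small was 0.06, 0.03, 0.03 and -0.05. Its mean was then 0.0032 turned (SD 0.0509, n = 4 arrays) and 0.0199 not turned (SD 0.0456, n = 4 arrays).

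**Figure D2:**
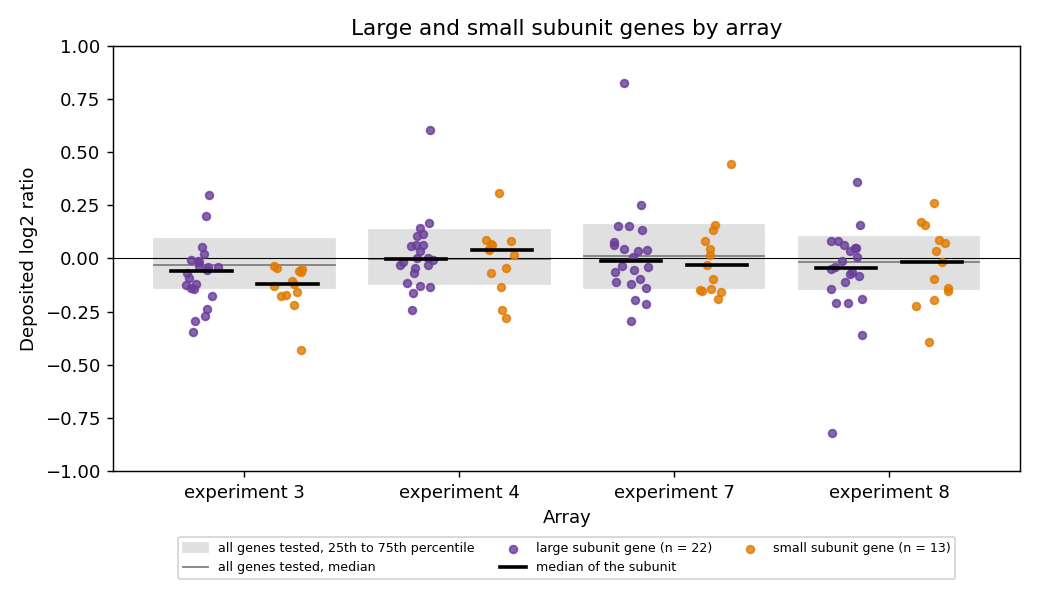
Deposited log2 ratio (vertical axis) of 22 large subunit genes (purple) and 13 small subunit genes (orange) in experiments 3, 4, 7 and 8, with a black bar at the median of each subunit and, in grey, the 25th to 75th percentile and the median of all genes tested. The small subunit genes all lie below 0 in experiment 3, where their median is -0.12, and both subunits lie around 0 on the other arrays.

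RpL23 encodes a protein of the large subunit that lies near the interface with the small subunit. Its deposited log2 ratios were 0.20, 0.07, 0.83 and -0.82 in experiments 3, 4, 7 and 8. It was thus the highest member in experiment 7 and the lowest in experiment 8, and its values in these 2 arrays of the same dyes had opposite signs. Experiment 7 minus experiment 8 was 1.65 on the log2 scale, which is 3.13-fold, and 14 of all genes had a larger difference with this sign. Among members the next largest was that of RpS5b, at 0.53. The mean of RpL23 was 0.03 with experiment 4 turned (SD 0.682, n = 4 arrays, 95% interval -0.57 to 0.64, limma adjusted p = 0.998) and 0.07 not turned. If experiment 8 was given the opposite sign as well, an alternative added after the values were seen, the mean was 0.45 (SD 0.45, n = 4 arrays, limma unadjusted p = 0.0396, adjusted p = 0.514). The gene was read by a single spot, RH29296, so that no other clone bears on this.

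The opposite values of experiments 7 and 8 were not a feature of the members in general. Over 35 members the Pearson correlation between these arrays was -0.37, and without RpL23 it was 0.12 over 34 members, against -0.33 over all genes. Spearman's rho over all 35 members was -0.03. RpS19b was above 0 on both arrays, with 0.44 and 0.16. RpL29, as the mean of its 2 spots, was below 0 on both, with -0.30 and -0.36, but only clone RE40409 was low, while RH58777 had -0.02 and 0.23. Of all pairs of arrays, experiments 3 and 7 had the highest correlation over members, at 0.50, and at 0.35 without RpL23, while over all genes it was 0.29. Genes of an array share its hybridisation, so these correlations are descriptions of the arrays.

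**Figure D3:**
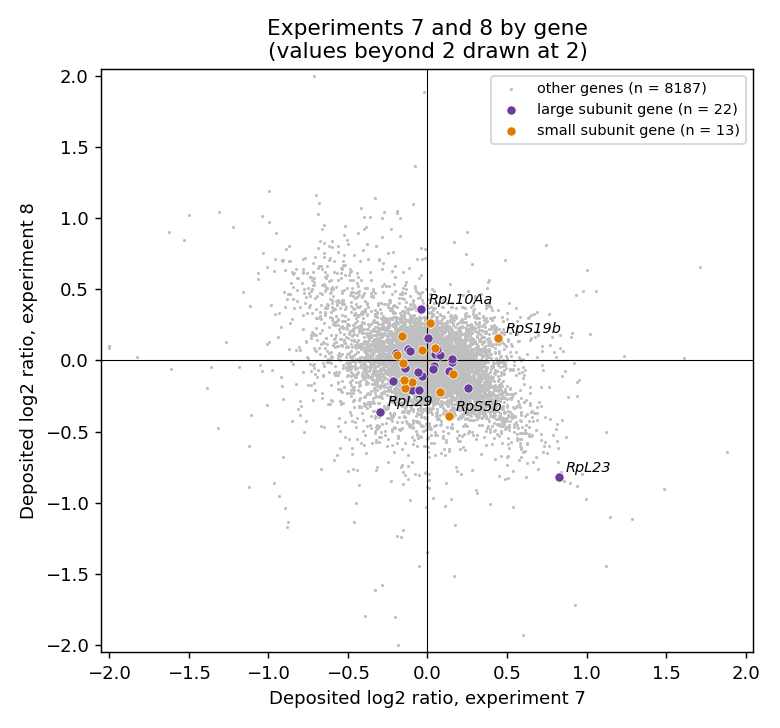
Deposited log2 ratio of each gene in experiment 7 (horizontal axis) and experiment 8 (vertical axis), with large subunit genes in purple, small subunit genes in orange and the other genes in grey. The cloud of other genes runs from upper left to lower right (r = -0.33 over all 8222 genes), the members sit around its centre, and RpL23 stands alone at the lower right.

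The stalk of the large subunit, which recruits the elongation factors, is built from RpLP0 and from pairs of the small acidic proteins RpLP1 and RpLP2. RpLP1 had deposited ratios of 0.30, 0.60, -0.12 and 0.08 in experiments 3, 4, 7 and 8, and was the highest member in experiments 3 and 4. Its partner RpLP2 had -0.04, -0.05, 0.06 and 0.08, and RpLP0, the base of the stalk, had 0.02, 0.06, -0.06 and -0.08. The 3 stalk genes therefore did not move together, and RpLP1 alone lay past 1.5-fold on an array. Each of the 3 was read by a single spot, so that no second clone bears on the values of RpLP1. The mean of RpLP1 was -0.09 with experiment 4 turned (SD 0.385, n = 4 arrays) and 0.22 not turned (SD 0.31, n = 4 arrays), with limma adjusted p of 0.998 and 0.997. Its sign thus hung on the reading of experiment 4. RpLP0-like, which resembles a factor of ribosome assembly, had -0.01, -0.24, -0.11 and 0.06, and its mean was 0.05 turned and -0.07 not turned.

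RpL29 had the lowest mean of the large subunit. It was below 0 on all 4 arrays, with -0.35, -0.16, -0.30 and -0.36 in experiments 3, 4, 7 and 8. Its mean was -0.29 with experiment 4 not turned (SD 0.0907, n = 4 arrays, limma unadjusted p = 0.0059, adjusted p = 0.997) and -0.21 turned (SD 0.25, n = 4 arrays, limma unadjusted p = 0.0979). The 2 spots of this gene did not share these values. Clone RE40409 had -0.60, -0.57 and -0.95 in experiments 3, 7 and 8 and no value in experiment 4. Clone RH58777 had -0.09, -0.16, -0.02 and 0.23. The value of the gene in experiment 4 is therefore that of RH58777 alone, and the low values of the gene are those of RE40409. With 1.19 in experiment 8, the gap between these spots was the largest among all members.

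RpL3, whose product reaches towards the site where peptide bonds form, had -0.29, 0.00 (0.0013), -0.21 and -0.14. It was low on the 3 arrays in which the wounded sample carried Cy3 and at 0 in experiment 4. Its mean was -0.16 in both readings, with SDs of 0.124 turned and 0.125 not turned (n = 4 arrays, limma unadjusted p = 0.0752 and 0.0771). RpL7-like, which resembles an assembly factor, had -0.18, 0.04, -0.10 and -0.21 and a mean of -0.13 turned (SD 0.0788, n = 4 arrays). At the other end, RpL17, a protein at the exit of the peptide tunnel, had 0.05, -0.13, 0.15 and 0.01 and the highest mean of the large subunit with experiment 4 turned, 0.09 (SD 0.0659, n = 4 arrays). It was the 1 member above 0 on all arrays in this reading. Not turned its mean was 0.02, and that of RpLP1 was the highest of the large subunit. RpL32, also called rp49 and much used as a reference gene in fly expression studies, had -0.14, 0.07, 0.04 and -0.06, with a mean of -0.06 turned and -0.03 not turned. Its 95% interval with experiment 4 turned ran from -0.22 to 0.11.

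Among small subunit genes, RpS20, which encodes a protein of the head of the subunit, had the lowest mean with experiment 4 turned, while RpS12 had it not turned. Its ratios were -0.43, 0.08, -0.14 and -0.20 in experiments 3, 4, 7 and 8. With experiment 4 turned all 4 are of one sign, with a mean of -0.21 (SD 0.153, n = 4 arrays, limma unadjusted p = 0.0405, adjusted p = 0.998), and not turned the mean was -0.17 (SD 0.211, n = 4 arrays). Both spots of RpS20 were measured on all arrays, and they shared a sign on 2 of 4. Clone RH47995 had -0.69, 0.18, -0.06 and -0.45, and clone RE38972 had -0.17, -0.02, -0.23 and 0.06. The sizes in experiments 3 and 8 were thus carried by RH47995.

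RpS12, known in the fly for its part in the competition between cells of different ribosomal gene dose, was below 0 on all arrays, with -0.22, -0.28, -0.15 and -0.14. Its mean was -0.20 with experiment 4 not turned (SD 0.0656, n = 4 arrays, limma unadjusted p = 0.0246, adjusted p = 0.997) and -0.06 turned (SD 0.227, n = 4 arrays, limma unadjusted p = 0.595). It was the lowest member in experiment 4, and its single spot gives no second reading. RpS18, another protein of the head, was the highest small subunit gene in experiment 4, with -0.16, 0.31, -0.15 and -0.02. Its mean was -0.16 turned (SD 0.118, n = 4 arrays, limma unadjusted p = 0.0784) and -0.00 (-0.0043) not turned. Its clones RH06581 and RH43343 had 0.39 and 0.22 in experiment 4, so that both showed the high value. RpS15Ab had -0.06, -0.24, 0.02 and 0.26, and both of its spots, 2 printings of the clone LD11847, were low in experiment 4 (-0.22 and -0.26) and high in experiment 8 (0.21 and 0.32).

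Several members are copies of a ribosomal protein gene used mainly in the germ line. RpL10Aa had -0.12, -0.01, -0.04 and 0.36 in experiments 3, 4, 7 and 8, the highest value of a member in experiment 8. Its paralogue RpL10Ab, which encodes the common form of this protein of the L1 stalk, had -0.01, -0.03, 0.15 and -0.01. The 2 genes thus differed most in experiment 8, where RpL10Ab lay near 0. RpS19b had -0.10, -0.05, 0.44 and 0.16 and the highest mean of all members with experiment 4 turned, 0.14 (SD 0.232, n = 4 arrays, limma adjusted p = 0.998). Not turned its mean was 0.11, and RpLP1 had the highest mean, 0.22. RpS5b, the form of the ovary, had -0.18, 0.06, 0.13 and -0.39, the lowest small subunit value of experiment 8. RpS10a had -0.12, -0.14, -0.16 and 0.17. The high and low arrays thus differed from gene to gene. Clones of paralogues can cross-hybridise, which was not tested here. The remaining 16 members, 10 of the large and 6 of the small subunit, had all their deposited ratios between -0.27 (RpL41, experiment 3) and 0.25 (RpL34a, experiment 7).

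One sign on all 4 arrays was found for 8 of 35 members with experiment 4 turned, against 12% of all genes, and for 3 not turned, against 10%. The 8 were RpL17 above 0 and, below 0, the 7 genes RpL3, RpL7-like, RpL37A, RpL40, RpS18, RpS20 and RpS26. The 3 were RpL29, RpL39 and RpS12, all below 0. RpL40, made like RpS27A as a fusion with ubiquitin, had a turned mean of -0.12 (SD 0.0762, n = 4 arrays), and RpS26, which lies by the mRNA exit, one of -0.09 (SD 0.0446, n = 4 arrays). The 2 sets had no gene in common, since a gene of one sign in one reading has experiment 4 on the other side in the other.

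**Figure D4:**
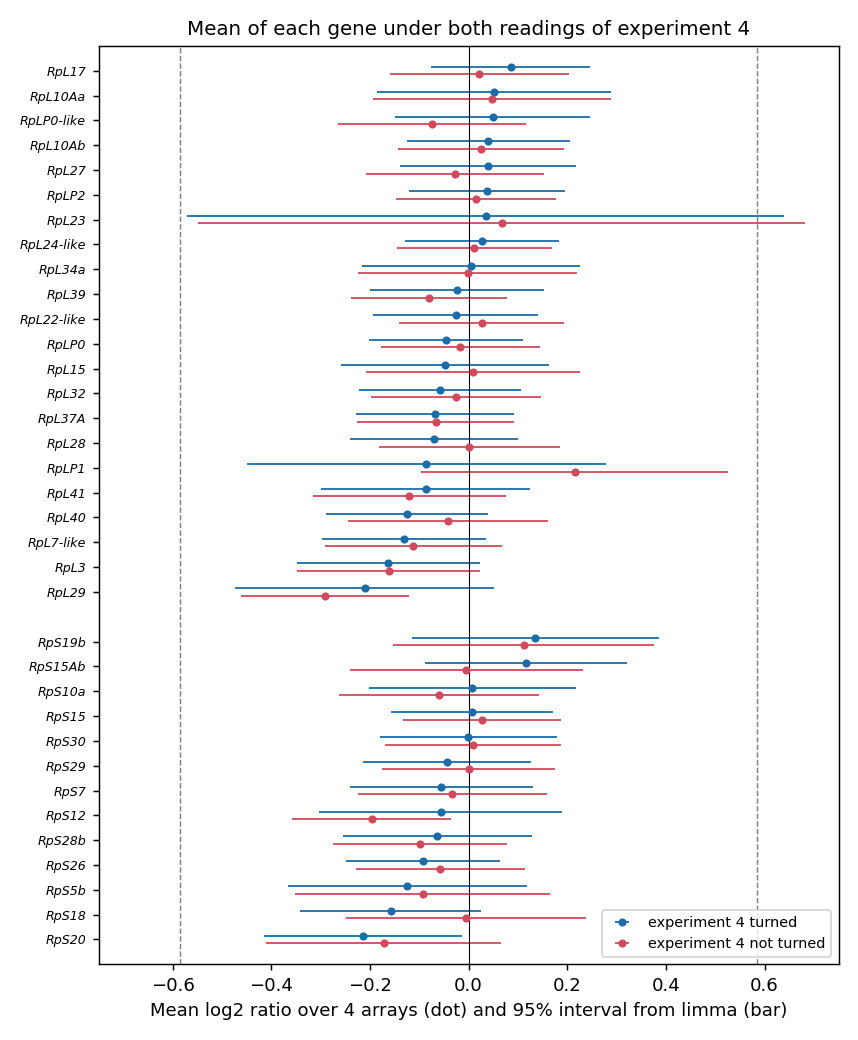
Mean log2 ratio over 4 arrays (dot) and its 95% interval from limma (bar) for each ribosomal protein gene, large subunit above and small subunit below, with experiment 4 turned (blue) and not turned (red) and dashed lines at 0.585 on both sides of 0. All bars except those of RpL23 lie between the dashed lines, and RpL29 and RpS12 (red) and RpS20 (blue) have a bar that does not cross 0.

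The intervals give how large a mean change these arrays leave room for under each reading. The 95% interval of the mean from limma, unadjusted for the number of genes, lay within 1.5-fold in both directions for 34 of 35 members, against 92.2% of all genes with experiment 4 turned and 91.9% not turned. The exception was RpL23 in both readings. Within 1.2-fold it lay for 21 of 35 members in both, against 39.4% and 38.8% of all genes. This was not particular to the members. Turned and not turned, the count was 20 and 21 of 32 translation factors, and 23 and 24 of 34 genes of ribosome biogenesis. It was 7 and 8 of 17 factors that meet the nascent chain, and 7 of 15 genes of Tor and S6 kinase control in both readings. Of 63 mitochondrial ribosomal protein genes it was 35 and 31. If an array stands the wrong way round, opposite values cancel in the mean, so that the intervals hold only for the reading used.

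The 12 members with several spots give the error of a spot. Over 47 pairs of a gene and an array, the pooled SD between spots of a gene was 0.214, and 0.171 without RpL29, against 0.295 over the 1334 genes with several spots. The gap between spots had a median of 0.159 and was under 0.2 in 31 of the 47 pairs. The median gap was larger than the median size of the ratios of members on any array, which lay between 0.0697 and 0.122. The gap is between single spots of these 12 genes, while the ratios are gene values of all members, so both are unlike measures. RpL37A, RpL40, RpS15 and RpS18 had gaps under 0.2 on every array. The 3 spots of RpL28 lay furthest apart in experiment 4, where LD41083 had -0.17 and RE52852 had 0.48. Those of RpL39, one of the smallest ribosomal proteins, did not share a sign on any array. In experiment 7 clone RE50942 had -0.43, RH27094 had -0.17 and a second amplification of RH27094 had 0.18, so that 2 prints of a clone also differed. RpL41, the other very small protein, had clones RE63504 and RH26620 with the same sign on all 4 arrays, at -0.45 and -0.09 in experiment 3. For RpL7-like, RpS15Ab and RpS29 the largest gaps were 0.232, 0.232 and 0.216.

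**Figure D5:**
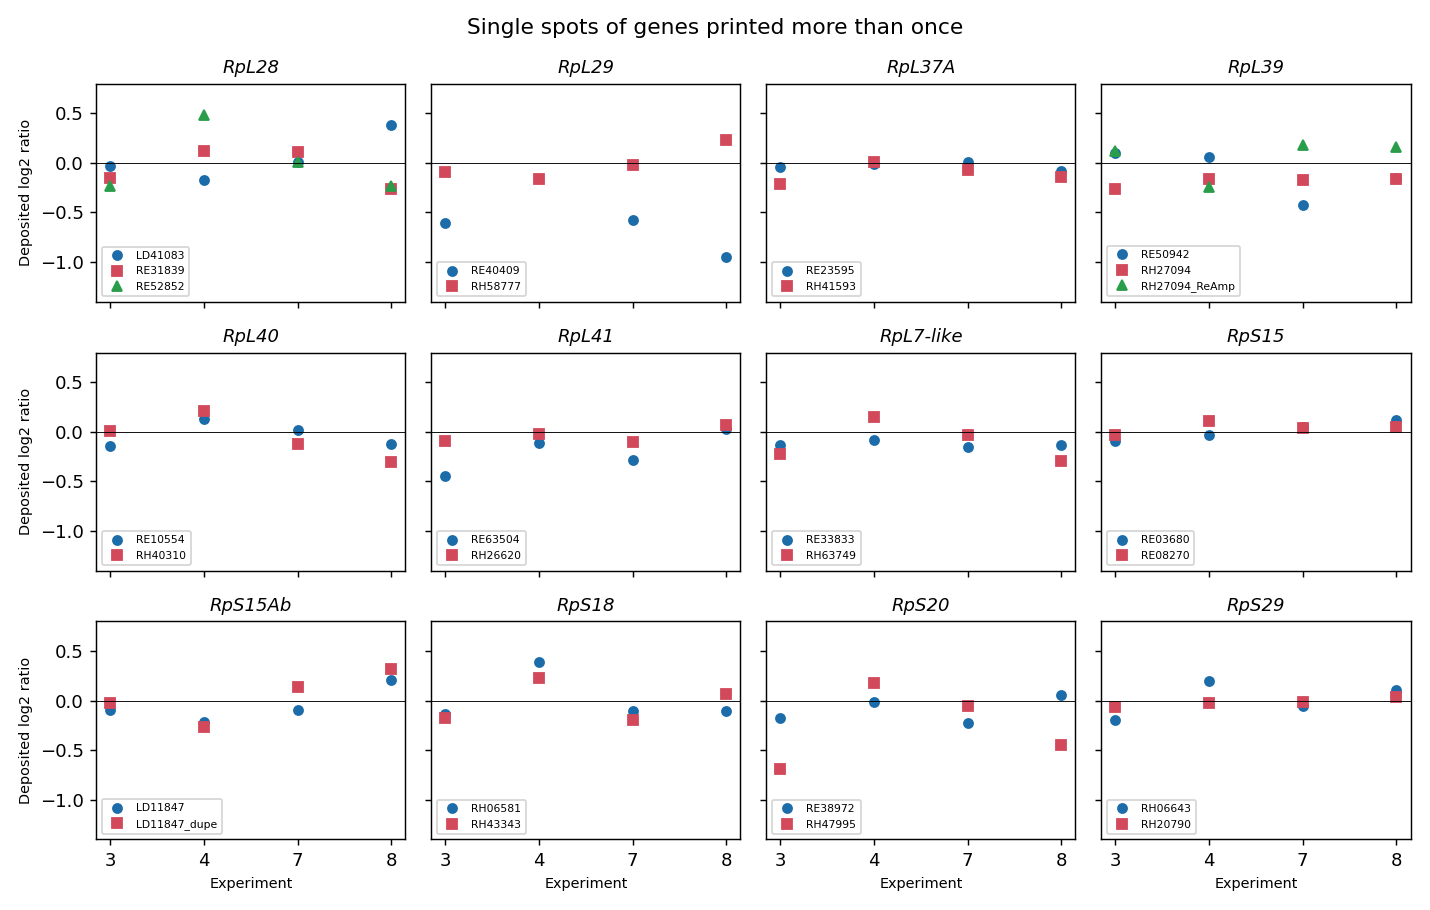
Deposited log2 ratio (vertical axis) of each spot in experiments 3, 4, 7 and 8 (horizontal axis) for the 12 ribosomal protein genes with more than 1 spot, with a colour and shape for each cDNA clone. The spots of RpS15 and RpL37A lie close together, while RE40409 of RpL29 lies between -0.57 and -0.95, below RH58777 on each array that has both.

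Genes that act with the ribosome were taken from 5 lists and read on the same arrays. None of them passed the threshold in either reading. With experiment 4 turned, the mean of the list was -0.0079 for translation factors, -0.03 for ribosome biogenesis, 0.03 for factors that meet the nascent chain and -0.09 for Tor and S6 kinase control. Not turned, these means were -0.01, -0.05, 0.02 and -0.0039. The medians of the gene means with experiment 4 turned were -0.0186, 0.0045, 0.0518 and -0.0568 in the same order. For ribosome biogenesis 18 of 34 means lay above 0, while Ns3 had -1.80 in experiment 8 and a mean of -0.57. For Tor and S6 kinase control 5 of 15 lay above 0, and InR, with -0.43, 0.48, -0.99 and 0.13, had the lowest mean, -0.44. Of 32 translation factors, 0 had an unadjusted p under 0.05 in limma with experiment 4 turned and 1 not turned, eRF3, a release factor, with ratios of 0.19, 0.33, 0.11 and 0.16. Of 34 genes of ribosome biogenesis it was 2 turned, mbm and Fib, and 1 not turned, Nnp-1. Fib, which encodes the nucleolar protein fibrillarin, had -0.40, 0.41, -0.15 and -0.87 (mean -0.46 turned, limma adjusted p = 0.915), and mbm, a factor of nucleolar function in neuroblasts, had -0.38, 0.74, -0.76 and -0.42 (mean -0.58 turned, limma adjusted p = 0.637). Not turned, the means were -0.25 for Fib and -0.21 for mbm, so that their size hung on the reading of experiment 4. Of 15 genes of Tor and S6 kinase control it was 2 turned, InR and gig, and 0 not turned, and of 17 factors that meet the nascent chain 0 in both readings. Over all genes these counts stand beside 4.93% turned and 2.51% not turned, and no list was tested as a group.

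The nascent chain list had a member with values much like those of RpL23. Nacalpha, a subunit of the complex that binds new chains at the ribosome, had 0.51, 0.03, 1.00 and -0.98 in experiments 3, 4, 7 and 8, and was singled out after its values were seen. Rack1, a protein bound to the head of the small subunit, had -0.10, 0.20, -0.06 and -0.19, with a mean of -0.14 turned. The 63 mitochondrial ribosomal protein genes are set beside the cytoplasmic ones for experiments 7 and 8 as a description, with no test of the difference. Cytoplasmic members lay above 0 in 17 of 35 cases in experiment 7 and in 15 of 35 in experiment 8, while of the mitochondrial ones 52 of 63 did in experiment 7 and 11 of 63 in experiment 8. Of all genes, 52.7% lay above 0 in experiment 7 and 46.1% in experiment 8. The mean of the cytoplasmic members was 0.01 and -0.05 on these arrays, and that of the mitochondrial ones 0.18 and -0.13. Over 4 arrays with experiment 4 turned the mitochondrial mean was 0.01, with 0 of 63 genes at an unadjusted p under 0.05 in limma in either reading.

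The genes whose 4 deposited ratios ran most like the mean of the large subunit, among 7998 genes with at least its range over arrays, were CG14787, CG10589, CG4282, CG14568 and CG9386 (Pearson r over 4 arrays from 0.9997 down to 0.9962). For the small subunit, among 7682 genes, they were CG16826, Tctp, COX5B, CG3483 and CG10026. Tctp had -0.31, 0.05, 0.05 and -0.04, beside -0.14, -0.00 (-0.0047), -0.00 (-0.0025) and -0.03 for the mean of the small subunit. With only 4 values in each profile, such a likeness is found for many genes. The large subunit mean used here, -0.07, 0.02, 0.02 and -0.07, included RpL23. Without that gene it was -0.09, 0.02, -0.02 and -0.03, and likeness to this profile was not computed.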

How the data were processed

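RNA of wounded and of unwounded embryos was labelled with Cy3 and Cy5, and both were hybridised to each of 4 spotted cDNA arrays. The authors scanned the arrays and deposited log2 ratios of the 2 channels, normalized by loess within each array, with no counts or intensities. Their methods remove dim and questionable spots, and whether this was done before deposit is not known. Between 11826 and 11891 of the 11984 probes had a value on each array, so few of these values can have been removed. The scale is log2 and the array medians lie near 0, but no source used here gives the direction of the ratio. By the labels, the wounded sample carried Cy5 in experiment 4 and Cy3 in the others, so the values of experiment 4 were multiplied by -1 ("turned"). All fits were repeated with experiment 4 not turned.

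Of 12144 spots, 160 control spots were left out (128 of plant genes and 32 of genomic DNA). Of the remaining 11984 probes, 9917 were annotated with 1 gene, 625 with several and 1442 with none listed, and 9746 symbols were updated through the RefSeq table of Release 6 while 171 were kept. The spots of each gene were averaged on each array, giving 8240 genes with a value on at least 3 arrays. All were fitted together in R 4.3.3 by lmFit and eBayes of limma 3.58.1, without a dye term, two-sided, with Benjamini-Hochberg adjustment. The threshold was that of the study's methods, an adjusted p under 0.05 with a mean log2 ratio of 0.585 or more in size, which is 1.5-fold. The fit was tested on simulated data with known changes. All simulated arrays carried the changes in the assumed direction, so that test does not cover arrays that stand the wrong way round. Its noise was drawn independently, with variances taken from the fit of these same data. Arrays whose values correlate over genes, as they do here, are therefore not covered either. Summaries were made in Python 3.11.15 with pandas 2.3.3 and numpy 2.4.6. Alternatives were experiment 4 not turned, a dye term, each array left out, genes on all 4 arrays, centring, scaling, the median over spots, spots in place of genes, the adjusted p alone, and members without the -like genes. Turning experiment 8 as well, leaving out RpL23, and leaving out each array with experiment 4 not turned were added after seeing the data.

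The members, the gene lists and the tests were chosen with earlier results of these data known. Named members are those at an unadjusted p under 0.05, the 3 highest and 3 lowest means of each subunit, the 2 highest and 2 lowest values of each array, those of one sign with the 3 largest means, the 5 largest SDs, RpL23, RpLP0, RpLP1, RpLP2, RpS6 and sta, and genes with a paralogue or with several spots. Other genes come from 5 fixed lists and from the 5 profiles most like each subunit. From the lists, some of the 2 highest and 2 lowest means and genes at an unadjusted p under 0.05 are named. Nacalpha was added after its values were seen. Members named outside this rule were named for their function after their values were seen.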

Additional observations from a re-analysis of the deposited data

Results flagged for a closer look

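For each of 35 members, the means of all members and of each subunit, and large minus small, Dixon's test compared the distance of the extreme array from the next with the range of all 4. With 39 sets in both readings of experiment 4 this made 78 searches, and 4 stood out where chance, at about 1 in 20, gives 3.9. With experiment 4 turned they were RpL29 and RpS12, whose deposited ratios of -0.16 and -0.28 in experiment 4 then stand with the opposite sign to the other arrays. These calls rest on the turning, since both genes are below 0 on all arrays as deposited, and the value of RpL29 in experiment 4 is that of 1 spot of 2. With experiment 4 not turned they were RpL10Ab, with 0.15 in experiment 7, and RpS10a, with 0.17 in experiment 8.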

How the results depend on the processing

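No gene passed the threshold under any alternative, nor did any of 11848 spots. The number of members at an unadjusted p under 0.05 in limma, 1 of 35 with experiment 4 turned, was 2 not turned and 0 with a dye term, 0 to 3 with each array left out, and 1 to 3 with each array left out and experiment 4 not turned. Without experiment 3, 7 or 8 it was 0, and without experiment 4 it was 3 (RpL29, RpL3 and RpS20). Of the 18 member genes followed under the planned settings, the direction of 8 changed. With experiment 4 not turned the mean was -0.0737 for RpLP0-like, 0.215 for RpLP1, -0.0604 for RpS10a and -0.0043 for RpS15Ab. With a dye term it was 0.0223 for RpL39 and 0.0554 for RpS12. With each array left out it ran from -0.0517 to 0.109 for RpL10Aa, -0.229 to 0.320 for RpL23, -0.0693 to 0.0156 for RpL39, -0.0167 to 0.101 for RpLP0-like, -0.214 to 0.0861 for RpLP1 and -0.0470 to 0.0621 for RpS10a. Centring, scaling, the median over spots and genes on all 4 arrays turned no direction among the 18. With each array left out, the mean of all members ran from -0.0536 (without experiment 7) to -0.0175 (without experiment 3), and large minus small from -0.0115 (without experiment 3) to 0.0199 (without experiment 8). The cause of these changes was not tested. The fit is itself one of 4 pairs, since each ratio sets a wounded against an unwounded sample of 1 array. No paired analysis was possible beyond it because the pairing is already in the ratios, and a further block by experiment would use up all 4. No intensities come with the ratios, so the weight of dim spots is unknown.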
